A study of Homo sapiens with 12 samples.

Results

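Autophagy and lysosome genes were followed in SH-SY5Y, a line derived from a human neuroblastoma that serves as a model of neurons, after amyloid-β, the peptide that accumulates in Alzheimer's disease. The set holds 47 genes taken by name: 24 of the autophagy machinery and its regulators, 14 lysosomal hydrolases and their activators, 4 lysosomal membrane proteins and 5 subunits of the proton pump, the V-ATPase. All 47 were among the 19775 genes that had an array probe set annotated to a single symbol, and each was read from its brightest such probe set. A mean over the 12 arrays of at least 3.78 on the log2 signal scale (a signal of 13.8) was required for testing, and 46 of the 47 passed, among 11774 genes in all. The exception was CTSZ, the protease cathepsin Z, whose log2 signal ran from −0.60 to 4.28 over the arrays and was not tested.

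There were 4 groups of 3 arrays. In the first, cells had received oligomeric Aβ with an incubation of 6 h, and in the second, fibrillar Aβ with an incubation of 24 h. A 6 h control and a 24 h control group completed the design. All cells were of this single line, grown in D-MEM/F-12 medium. Preparation and hours changed together, so their parts in a difference between the treated groups cannot be told apart, and the labels leave unsaid whether the incubation is that of the peptide or of the cells. Nor do they say that replicates were separate cultures, so the p-values cover no more than the spread among these arrays, which may be technical.

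Autophagy encloses cytoplasm in a double membrane and delivers it to the lysosome, where acid hydrolases break it down. The ULK kinase complex starts the process, a lipid kinase complex holding BECN1 and ATG14 marks the membrane, ATG9A and ATG2A supply lipid, and enzymes related to the ubiquitin system attach ATG8 family proteins such as LC3 to it. The transcription factors TFEB, TFE3 and MITF switch on many of these genes together by binding an E-box element in their promoters, the CLEAR element, and the kinase mTORC1 holds them in the cytoplasm when nutrients are plentiful. In neurons, failing lysosomes and undigested autophagosomes are well known features of Alzheimer's disease. Transcript levels do not measure the flow of material through the pathway, which rests largely on phosphorylation, lipidation and acidification.

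The CLEAR core is shown first because it is the element known to be read by the 3 regulators. RefSeq promoters (build GRCh38.p14, from 250 bases before to 50 bases after each transcript start) were on hand for 40 of the 47 genes, 48 promoters in all. The motif searched was TCACGTGA, which reads the same on both strands and contains the E-box CACGTG. It stood in 6 of the 48 promoters (12.5%), against 0.98% of all 35116 promoters in the table and 1.71% of those of tested genes. The shorter CACGTG stood in 9 of them (18.8%), against 7.26% and 9.39%. By group, of the 32 autophagy promoters 1 held the core (3.12%) and 2 the E-box (6.25%), while of the 11 hydrolase promoters 2 held the core (18.2%), of the 3 membrane promoters 2 and of the 2 proton pump promoters 1. A window around 1 CLEAR core of each of the 6 genes follows, 5′ to 3′ on the gene's own strand, with the core in capitals. ATG3 conjugates ATG8 proteins to lipid, ATP6V0D1 is a subunit of the membrane part of the pump, CTSA is a carboxypeptidase, GAA digests glycogen, LAMP1 lines the lysosome and MCOLN1 is its calcium channel.
ATG3 (minus strand, chr3:112561940-112561969): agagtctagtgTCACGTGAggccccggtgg
ATP6V0D1 (minus strand, chr16:67481199-67481228): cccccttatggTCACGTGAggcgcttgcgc
CTSA (plus strand, chr20:45891298-45891327): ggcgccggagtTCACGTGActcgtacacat
GAA (plus strand, chr17:80101493-80101522): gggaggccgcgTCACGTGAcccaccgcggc
LAMP1 (plus strand, chr13:113297199-113297228): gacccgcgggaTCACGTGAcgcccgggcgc
MCOLN1 (plus strand, chr19:7522571-7522600): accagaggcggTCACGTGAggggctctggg
In 5 of the 6 genes the E-box shown begins upstream of the annotated start, at −25 in CTSA, −28 in LAMP1, −41 in MCOLN1, −59 in ATP6V0D1 and −76 in GAA. In ATG3 it begins at 6. GAA, LAMP1 and MCOLN1 each hold a second such core, at −31, −1 and −14 in that order. CTSD, ATG14 and NEU1 hold the E-box without the full core. A match is a description of these letters, not of binding. The genes were taken by name, and many were already known to be switched on through this element, so the higher share is not a test. CTSB, HEXA, PSAP, LAMP2, ATP6V1A, ATP6V1B2 and ATP6V1H had no entry.

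The arrays carried most markers of a noradrenergic neuroblastoma line, and mesenchymal markers as well. Of 8 such markers 7 had a probe set and 6 lay above the filter, with mean log2 signals of 6.30 for HAND2 to 12.11 for GATA3. TH, the enzyme that makes the dopamine precursor, lay below the filter at 0.73. Of 5 mesenchymal markers 4 lay above the filter, with means of 4.69 for COL1A2 to 13.16 for VIM. Of 4 epithelial markers 1 passed the filter (EPCAM, 4.53), and of 4 glial markers with a probe set 1 did (S100B, 4.32). None of 6 macrophage and blood markers passed it (means of 0.08 to 3.69), and their summed linear signal was 28.7 to 53.8 in the 6 h controls, 32.4 to 50.9 with oligomers, 28.7 to 53.2 in the 24 h controls and 26.7 to 37.1 with fibrils. The mean 3′ less 5′ signal of GAPDH and ACTB, a measure of RNA degradation, was 1.80 to 2.04 in the 6 h controls, 1.63 to 1.80 with oligomers, 1.43 to 1.58 in the 24 h controls and 1.48 to 1.94 with fibrils. The 2 control groups did not overlap in it, and fibrillar replicate 1 was the highest of the 24 h arrays.

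Most members were level over the whole experiment. The standard deviation of the log2 signal over the 12 arrays had a median of 0.19 among the 46 members, against 0.21 among all tested genes, and ran from 0.04 for PPT1, a thioesterase that removes fatty acids from proteins, to 0.41 for CTSD, an aspartic protease. PPT1 moved over a range of 0.16 in all. TFE3 was among the more variable, with a standard deviation of 0.36.

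**Figure D1:**
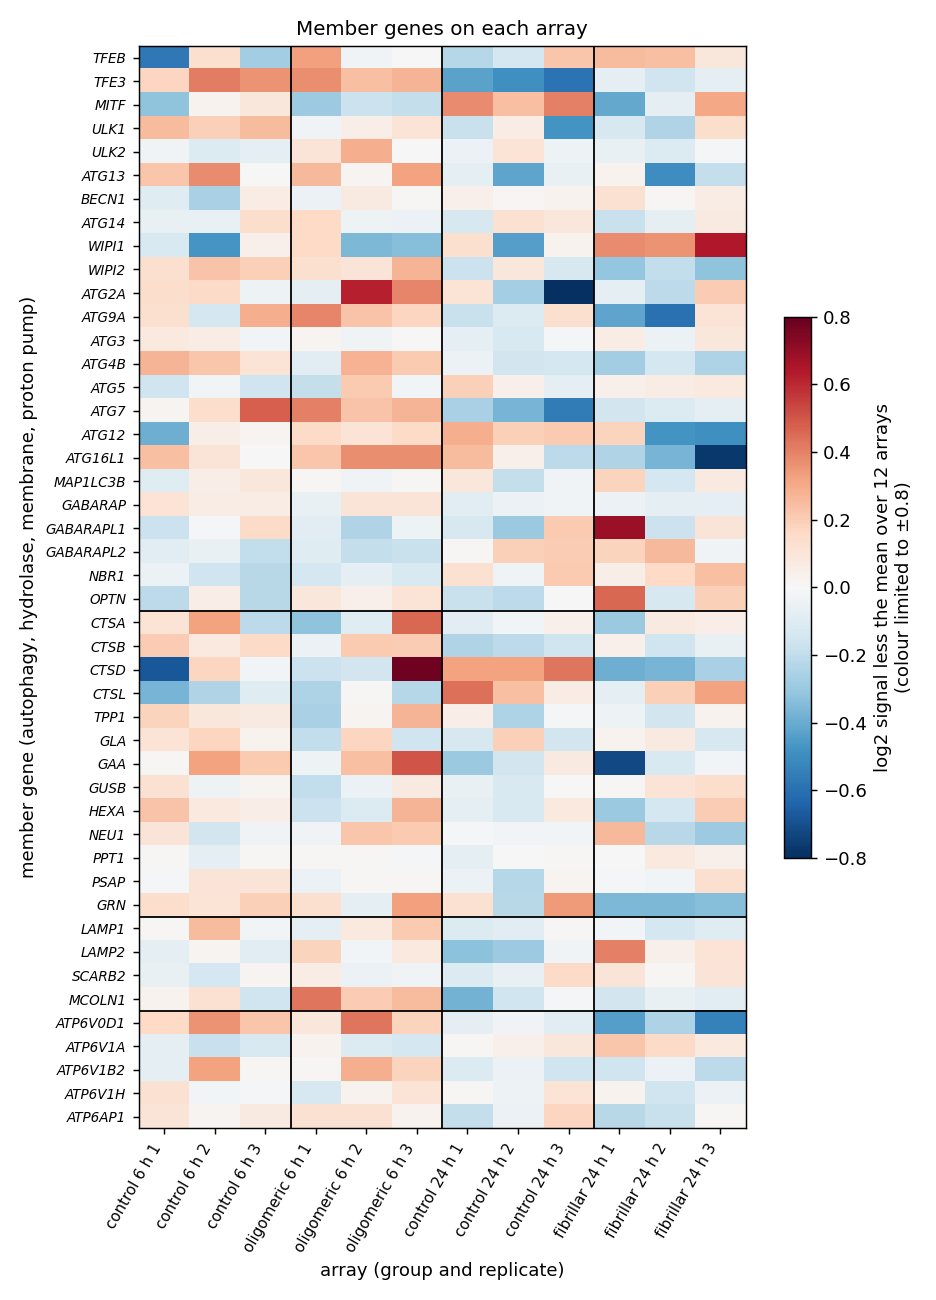
Each cell is the log2 signal of 1 tested member gene (rows, grouped from top to bottom as autophagy, hydrolase, membrane and proton pump) on 1 of the 12 arrays (columns, by group and replicate), less that gene's mean over the arrays, with red above and blue below. TFE3 is red on all 6 arrays of 6 h and darkest blue on the 3 arrays of the 24 h controls, while PPT1 and ATG3 stay close to their means throughout.

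With oligomeric Aβ no autophagy or lysosome gene passed the test against the 6 h control. By limma with Benjamini-Hochberg adjustment over all 11774 genes, 0 of the 46 passed an adjusted p of 0.05, every member had an adjusted p of 1, and 0 had an unadjusted p under 0.05. Over all genes percent called was 0, and 2.78% had an unadjusted p under 0.05. Member changes ran from −0.19 for ULK1 to 0.35 for TFEB on the log2 scale, 24 were higher and 22 lower, and their median was 0.01, against −0.00 for all genes. The groups did not overlap for 4 members (8.70%), against 7.36% of all genes: the kinase ULK2, the ubiquitin-like protein ATG12 and the channel MCOLN1 were higher on each treated array, and the kinase ULK1 lower.

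The 95% interval of the oligomer change lay within ±0.5 on the log2 scale (1.41-fold either way) for 35 of the 46 members and within ±1 for all 46. The widest reached 0.95, for CTSD. These intervals are for each gene singly and rest on 3 arrays a group.

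ULK2, which together with ULK1 initiates autophagy, had log2 signals of 7.79, 7.98 and 7.69 with oligomers against 7.66, 7.59 and 7.62 in the control. Each treated array was above each control array, narrowly so for replicate 3, and the change was 0.20 (SE 0.10). The other ULK2 probe sets above the filter changed by 0.02, −0.05 and −0.24. MCOLN1, the calcium channel whose promoter window is shown above, had 6.34, 6.11 and 6.15 against 5.93, 6.02 and 5.74. It was higher on all treated arrays, with a change of 0.30 (SE 0.16). Neither passed the test.

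Among the hydrolases, GLA and GUSB had the smallest unadjusted p with oligomers. GLA, the α-galactosidase missing in Fabry disease, had 8.11, 8.47 and 8.14 with oligomers against 8.41, 8.47 and 8.33, a change of −0.16 (SE 0.11) with groups that overlapped. GUSB, β-glucuronidase, had 9.57, 9.72 and 9.84 against 9.89, 9.73 and 9.79, a change of −0.09 (SE 0.08), again with overlap. In the proton pump the largest change was 0.08 (SE 0.10), in the catalytic-part subunit ATP6V1B2, with 9.24, 9.52 and 9.41 against 9.15, 9.55 and 9.24. LAMP2, a glycoprotein of the lysosomal membrane, had 9.26, 9.05 and 9.16 against 9.01, 9.10 and 8.98, a change of 0.12 (SE 0.10). Its other probe sets above the filter changed by −0.31 (SE 0.13), −0.03 and 0.00. ATG12 had 9.65, 9.62 and 9.65 against 9.11, 9.56 and 9.52, a change of 0.24 (SE 0.14), and its other probe sets changed by −0.00 and 0.18. The 3 treated ATG12 arrays were nearly equal, and control replicate 1 was the low one.

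**Figure D2:**
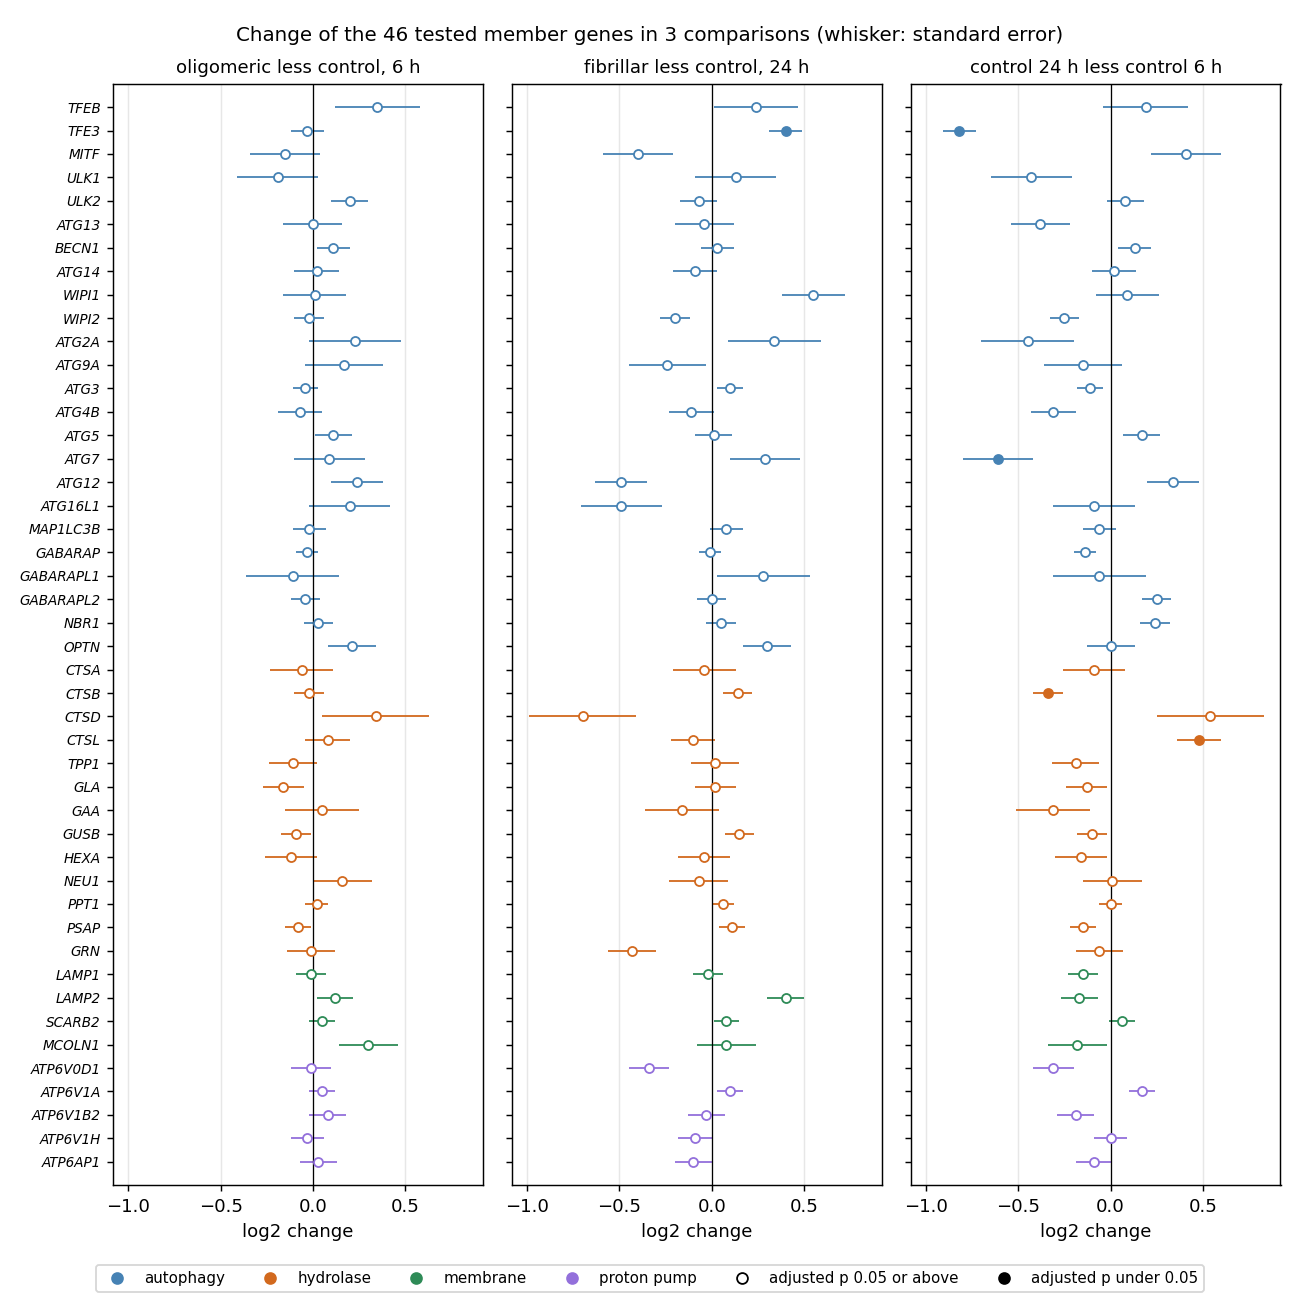
Points are the log2 change of each of the 46 tested member genes (y axis) with oligomers at 6 h, with fibrils at 24 h and from the 6 h to the 24 h control (x axes), coloured by group, and whiskers are standard errors. No point is filled (adjusted p under 0.05) for oligomers, only TFE3 is filled for fibrils, and TFE3, ATG7, CTSB and CTSL are filled between the controls.

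With fibrillar Aβ a single member passed the test: TFE3 was higher than in the 24 h control by 0.40 (SE 0.09, 1.32-fold, adjusted p = 0.042 by limma). That is 1 of 46 members, which rose, and 0 that fell, where percent called over all genes was 1.19 (0.798 for genes that rose and 0.391 for genes that fell). An unadjusted p under 0.05 was found for 10 members (21.7%), against 14.2% of all genes. The 24 higher and 22 lower members had a median change of 0.00, against −0.00 over all genes, and ran from −0.70 for CTSD to 0.55 for WIPI1. The groups did not overlap for 11 members (23.9%), against 19.7% of all genes. TFE3, WIPI1, ATG7, GUSB and LAMP2 were higher on each fibrillar array, and WIPI2, ATG12, ATG16L1, CTSD, GRN and ATP6V0D1 were lower.

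TFE3 had log2 signals of 8.00, 7.92 and 8.02 with fibrils and of 7.65, 7.60 and 7.49 in the 24 h control. The 3 fibrillar arrays lay close together, above every 24 h control array and below every array of 6 h, where the control had 8.26, 8.50 and 8.45 and the oligomeric cells 8.46, 8.32 and 8.35. With oligomers the change was −0.03 (SE 0.09), with a 95% interval of −0.21 to 0.16, against an interval of 0.21 to 0.59 with fibrils. The difference between these responses was 0.42 (SE 0.13) and did not pass the test (adjusted p = 0.294). In RNA from a whole culture, a higher level per cell and a larger share of cells with the transcript cannot be told apart.

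The fibrillar call on TFE3 was a narrow one and rested on 1 probe set. The other TFE3 probe set above the filter was dimmer, at a mean of 5.07 against 8.09, and its change was 0.00 (SE 0.22). Averaging both gave 0.20 (adjusted p = 0.433). The adjusted p was 0.106 with the 3′ less 5′ measure as a covariate, where the change was 0.42, and 0.0852 when the 24 h groups were fitted alone. Leaving out 1 array of the 24 h groups kept the call once in 6 fits (without fibrillar replicate 2), with adjusted p from 0.0431 to 0.176 and changes of 0.36 to 0.43. Leaving out oligomeric replicate 2 or 6 h control replicate 1 or 3, which enter only the shared error, gave 0.0559, 0.0503 and 0.054.

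TFEB and MITF, the related factors, did not pass the test with either preparation. TFEB had 5.38, 5.37 and 5.23 with fibrils against 4.91, 4.99 and 5.35, a change of 0.24 (SE 0.23) with overlap through control replicate 3. With oligomers it had 5.46, 5.11 and 5.14 against 4.56, 5.26 and 4.85, a change of 0.35 (SE 0.23). MITF had 5.41, 5.74 and 6.12 with fibrils against 6.19, 6.05 and 6.21, lower by 0.40 (log2 change −0.40, SE 0.19, adjusted p = 0.365), and its fibrillar replicate 3 lay among the controls.
MITF with oligomers had 5.52, 5.64 and 5.62 against 5.49, 5.84 and 5.90, a change of −0.15 (SE 0.19). The other MITF probe set above the filter changed by 0.12 (SE 0.23) with oligomers and by −0.31 (SE 0.23) with fibrils. On the tested probe sets the signs of the 3 factors differed in both comparisons, but only TFE3 with fibrils passed, so the other signs are not established.

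**Figure D3:**
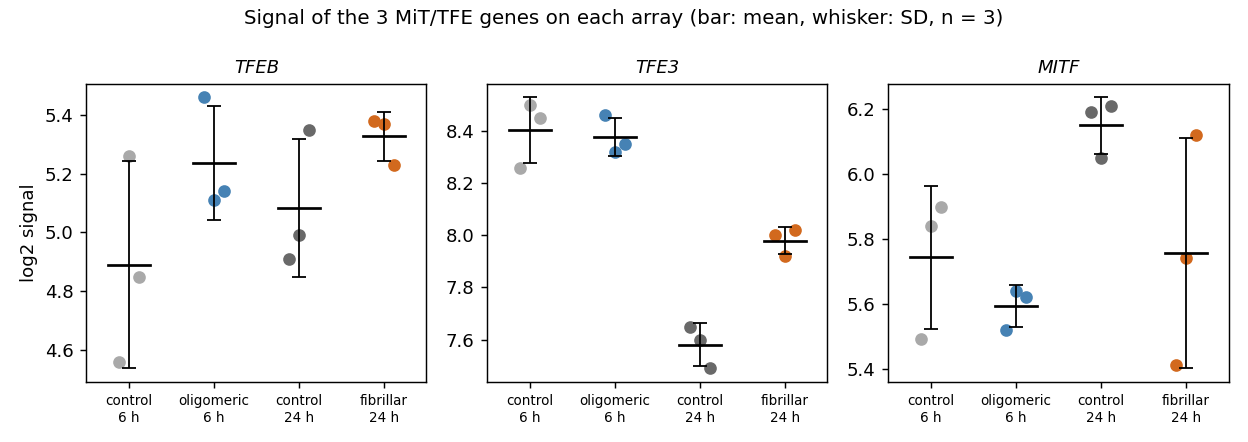
Log2 signal (y axis) of TFEB, TFE3 and MITF on each array of the 4 groups (x axis), with the mean as a bar and the SD of 3 arrays as a whisker. TFE3 is 8.26 to 8.50 on the arrays of 6 h, 7.49 to 7.65 in the 24 h controls and 7.92 to 8.02 with fibrils, whereas the fibrillar and control arrays of TFEB and of MITF overlap.

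LAMP2, which is needed for fusion with autophagosomes and for chaperone-mediated autophagy, came nearest to the threshold after TFE3. It had 9.48, 9.12 and 9.19 with fibrils against 8.75, 8.79 and 9.05. Each fibrillar array was above each control array, replicate 1 most, and the change was 0.40 (SE 0.10, 1.32-fold, adjusted p = 0.0665). Its 3 other probe sets above the filter had changes of 0.14, 0.27 and 0.11, so all 4 were higher. It passed under centring on the array median (adjusted p = 0.0447), with array quality weights (0.0423) and without fibrillar replicate 2 (0.0391). The change was 0.23 (adjusted p = 0.314) with averaged probe sets, 0.27 (0.299) with the 3′ less 5′ covariate and 0.29 (0.217) without fibrillar replicate 1. LAMP1, the other major membrane glycoprotein, had 11.44, 11.32 and 11.35 against 11.34, 11.36 and 11.46, a change of −0.02 (SE 0.08). SCARB2, which carries glucocerebrosidase to the lysosome, had 12.22, 12.13 and 12.22 against 12.01, 12.06 and 12.27, a change of 0.08 (SE 0.07). For both of these the groups overlapped.

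In the conjugation machinery ATG12, which joins ATG5 to form the enzyme that places ATG8 proteins on the membrane, had 9.68, 9.02 and 9.01 with fibrils against 9.80, 9.70 and 9.71. Fibrillar replicates 2 and 3 were well below the control, and replicate 1, the array with the highest 3′ less 5′ value at 24 h, lay just under it. The change was −0.49 (SE 0.14, adjusted p = 0.124). Without replicate 1 it was −0.72 (adjusted p = 0.0039), and with the 3′ less 5′ measure as a covariate −0.59 (adjusted p = 0.158). Averaging its probe sets gave −0.19 (adjusted p = 0.436). Of its other probe sets 1 was lower (−0.39, SE 0.13) and 1 higher (0.32, SE 0.16). The fibrillar less the oligomeric response of ATG12, −0.74 (SE 0.20, adjusted p = 0.252), passed without that array (−0.96, adjusted p = 0.00685) and not with the covariate (−0.89, adjusted p = 0.366). WIPI1, which binds the phosphoinositide made at the forming membrane, was named after its values were seen, for the largest positive change: it had 7.87, 7.85 and 8.13 against 7.62, 7.05 and 7.52. All fibrillar arrays were above the control, with a change of 0.55 (SE 0.17, adjusted p = 0.147), and its second probe set changed by 0.28 (SE 0.16).

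The 4 ATG8 family genes, whose products are fixed to the autophagosome membrane, did not pass the test with either preparation. MAP1LC3B had 9.05, 8.73 and 8.94 with fibrils against 8.96, 8.68 and 8.84, GABARAP had 10.87, 10.84 and 10.84 against 10.83, 10.87 and 10.89, and GABARAPL2 had 11.09, 11.18 and 10.89 against 10.93, 11.11 and 11.11. Fibrillar and control arrays were interleaved for all of these, with changes of 0.08 (SE 0.09), −0.01 (SE 0.06) and 0.00 (SE 0.08). GABARAPL1 had 5.71, 4.85 and 5.12 against 4.90, 4.73 and 5.23, a change of 0.28 (SE 0.25) in which replicate 1 alone was high. With oligomers the 4 changes lay between −0.11 and −0.02. MAP1LC3B and GABARAPL1 have near-identical gene copies whose transcripts these probes could also read.

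Of the hydrolases and their activators, 6 of 13 were higher and 7 lower with fibrils, and none passed. CTSD, the main aspartic protease of the lysosome, had 4.52, 4.53 and 4.64 against 5.22, 5.23 and 5.33. Both groups were tight and apart, while its 6 h arrays, which share the estimate of error, spread from 4.23 to 5.69. The change was −0.70 (SE 0.29, adjusted p = 0.283). CTSD was read from its only probe set, at a mean of 4.90, the lowest of the tested members and not far above the filter of 3.78. GRN, which encodes progranulin, a secreted protein processed in the lysosome and lost in a form of frontotemporal dementia, had 7.00, 6.99 and 7.01 against 7.48, 7.13 and 7.70. Every fibrillar array was below the control, by −0.43 on average on the log2 scale (SE 0.13, adjusted p = 0.142). That probe set is of a type that may also bind other transcripts, and the other 2 changed by −0.24 and −0.14. GUSB had 9.78, 9.88 and 9.91 against 9.71, 9.65 and 9.77, barely apart, with a change of 0.15 (SE 0.08).

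In the proton pump, which acidifies the lysosome, ATP6V0D1 had 7.13, 7.32 and 7.03 with fibrils against 7.48, 7.53 and 7.48. The 3 treated arrays were the lowest of all 12, with a change of −0.34 (SE 0.11, adjusted p = 0.17). ATP6V1A, the catalytic subunit, had 9.58, 9.51 and 9.44 against 9.37, 9.40 and 9.45, a change of 0.10 (SE 0.07) with a slight overlap. Its other probe set, far dimmer at a mean of 5.03, changed by −0.74 (SE 0.29). The other 3 subunits changed by −0.10 to −0.03.

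**Figure D4:**
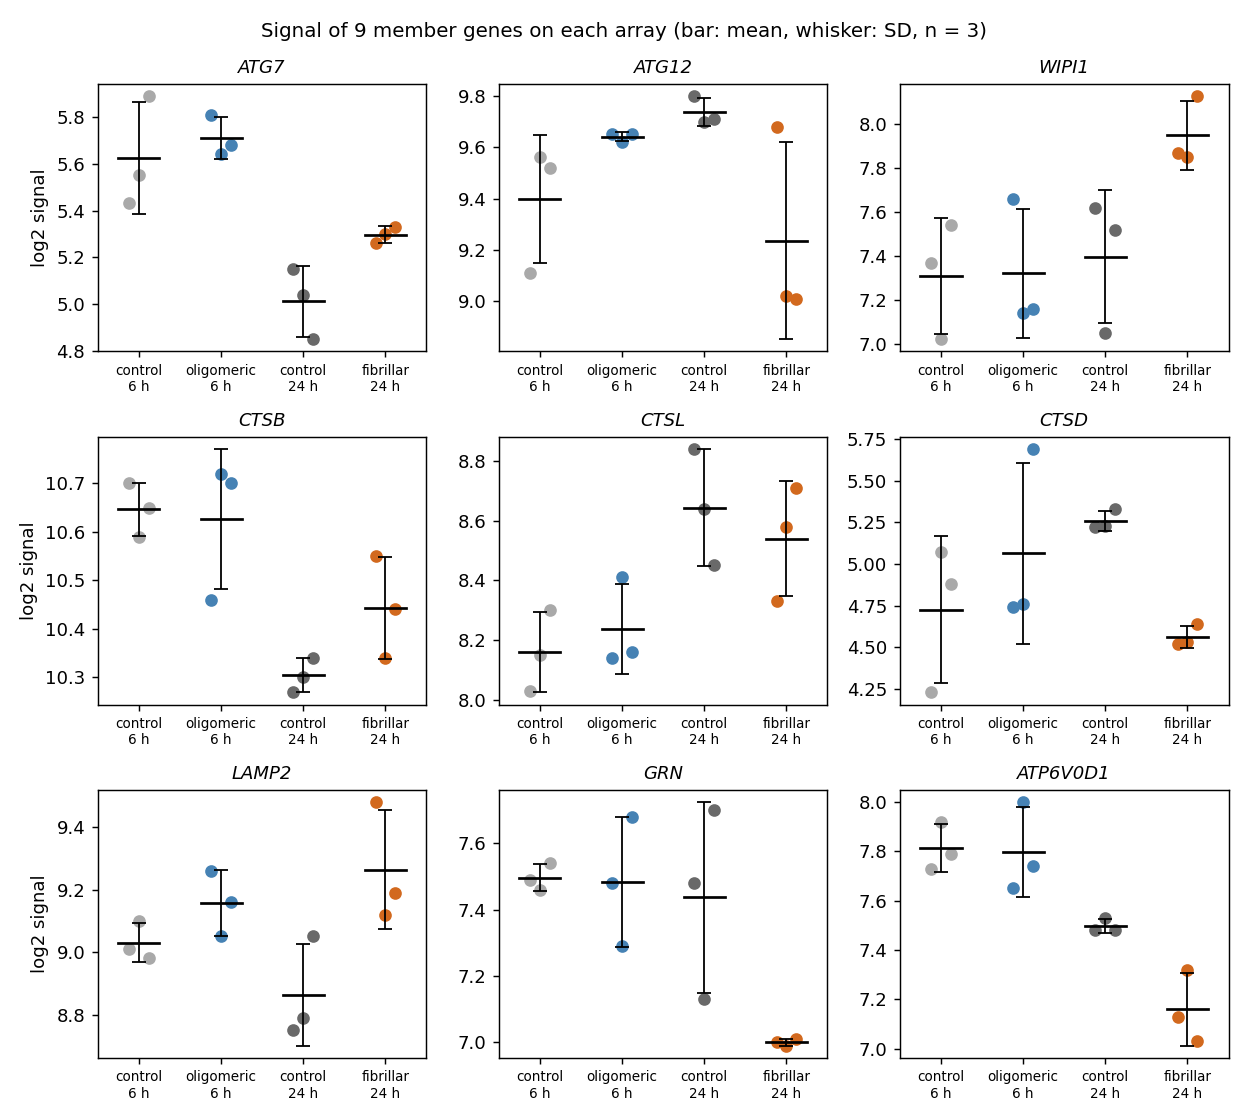
Log2 signal (y axis) of 9 member genes on each array of the 4 groups (x axis), with the mean as a bar and the SD of 3 arrays as a whisker. Fibrillar arrays lie apart from the 24 h controls for ATG7, ATG12, WIPI1, CTSD, LAMP2, GRN and ATP6V0D1, in either direction, and ATG7 and CTSB are lower and CTSL higher in the 24 h than in the 6 h controls.

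No member passed the test of the fibrillar against the oligomeric response: 0 of 46 passed by limma and 7 had an unadjusted p under 0.05 (15.2%), where percent called over all genes was 0.0425 and 8.53% had such a p. The median difference was 0.00, against 0.01 for all genes. The precision was lower here, since 22 of the 46 intervals lay within ±0.5 and 40 within ±1. The largest difference was that of CTSD, −1.03 (SE 0.41, adjusted p = 0.47), and it was the only one past 1 in size.

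The control groups themselves differed in several autophagy and lysosome genes. From 6 h to 24 h, 4 of the 46 passed the test: TFE3, CTSB and ATG7 fell and CTSL rose. Percent called over all genes was 11.7, with 3.76 for genes that rose and 7.92 for genes that fell, so the members' share of 8.70% is near the background. An unadjusted p under 0.05 was found for 14 members (30.4%), against 26.6% of all genes. The groups did not overlap for 17 (37.0%), against 32.6%. Of the 46, 30 were lower and 16 higher, with a median of −0.09, against −0.02 over all genes. This comparison and that of fibrils use the same 24 h control arrays, so a chance high or low value there moves both, in opposite directions. Over the same hours 2 of the 6 noradrenergic markers above the filter passed the test, and both fell, PHOX2A by 0.44 and DBH by 0.50. HAND2 went the other way without a call, from a mean of 6.25 to 6.68. That list's summed linear signal was 12100 to 12900 in the 6 h controls and 10600 to 11900 in the 24 h controls. Of 4 mesenchymal markers TWIST1 alone passed, rising by 0.44, while COL1A2 went from a mean of 5.13 to 4.34 without a call. The mesenchymal sum was 12400 to 13100 in the 6 h controls and 12900 to 14800 in the 24 h controls. The part of these shifts in the members' changes was not tested.

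TFE3 fell by 0.82 on the log2 scale (SE 0.09, a fold of 0.57, adjusted p = 5.27e-05), the largest change of any member in size. Every 24 h control array was below every 6 h control array by a wide margin. The call held in 12 of 12 alternative settings, with changes of −0.95 to −0.55 over all of them, and without each array in turn. Its dimmer probe set changed by −0.27 (SE 0.22). Relative to the 6 h control at a mean of 8.40, the 24 h control stood at 7.58 and the fibrillar cells at 7.98.

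CTSB, a cysteine protease, had 10.27, 10.30 and 10.34 in the 24 h control against 10.70, 10.59 and 10.65 at 6 h. The groups were apart and the change was −0.34 (SE 0.08, adjusted p = 0.00878). It has 5 probe sets above the filter, which disagreed: a second changed by −0.35, and the others by −0.04, 0.13 and 0.35. Their mean changed by −0.05 (adjusted p = 0.708). With the 3′ less 5′ measure as a covariate the brightest probe set changed by −0.23 (adjusted p = 0.26).

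CTSL, the related cysteine protease, went the other way, with 8.84, 8.64 and 8.45 against 8.03, 8.15 and 8.30. All 24 h controls were above the 6 h controls, by 0.48 (SE 0.12, 1.40-fold, adjusted p = 0.0153), on its single probe set. The change was 0.16 (adjusted p = 0.587) with the 3′ less 5′ measure as a covariate, and the call was lost under median centring (0.0733), a constant prior variance (0.0536) and without 6 h control replicate 1 (0.0684) or 2 (0.0509) or 24 h control replicate 1 (0.0834). With fibrils it had 8.33, 8.58 and 8.71, a change of −0.10 (SE 0.12) from the 24 h control.

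ATG7, the enzyme that activates both ATG12 and the ATG8 proteins, had 5.15, 5.04 and 4.85 at 24 h against 5.43, 5.55 and 5.89. The groups were apart, by −0.61 (SE 0.19, adjusted p = 0.0478), but leaving out any 1 of the 12 arrays ended the call. Without an array of the compared groups the adjusted p was 0.0547 to 0.18. Its other 3 probe sets changed by −0.14, −0.09 and −0.97, the last with an SE of 0.45. With fibrils it had 5.26, 5.30 and 5.33, between the 24 and 6 h controls, a change of 0.29 (SE 0.19, adjusted p = 0.55) from the former.

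Of the members that did not pass, GABARAPL2 was nearest to the threshold, with 10.93, 11.11 and 11.11 at 24 h against 10.83, 10.85 and 10.72. The groups were apart and the change was 0.25 (SE 0.08, adjusted p = 0.0505). MITF, with 6.19, 6.05 and 6.21 against 5.49, 5.84 and 5.90, changed by 0.41 (SE 0.19), opposite in sign to TFE3. The ATP6V0D1 change was −0.31 (SE 0.11, adjusted p = 0.0785). ATG12 changed by 0.34 (SE 0.14, adjusted p = 0.146), with its 24 h controls apart from and above those of 6 h. Its other probe sets rose by 0.56 (SE 0.13) and 0.46 (SE 0.16). ATG12 passed with averaged probe sets, with the compared groups alone and without fibrillar replicate 1. Over all alternative fits its change was 0.20 to 0.51. Over time the 6 genes with a CLEAR core in the promoter were all lower on their tested probe sets, by −0.31 to −0.09 with a median of −0.16, and none passed. The other LAMP1 probe sets above the filter changed by 0.46 (SE 0.24), −0.12 and 0.10, and that of ATG3 by −0.51 (SE 0.17). Of all 46 members 30 were lower in this comparison. The 33 tested members with a promoter entry and no core had a median of −0.06, and 15 of them were higher. The 226 tested genes with that core had a median of −0.01, and 107 of them were higher.
With oligomers and fibrils the median change of the 6 was −0.01 and −0.03.

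Array by array values are not given for most of the other 23 tested members. They ran from −0.19 (ULK1) to 0.23 (ATG2A) with oligomers, from −0.49 (ATG16L1) to 0.55 (WIPI1) with fibrils and from −0.45 (ATG2A) to 0.24 (NBR1) over time. Nearest to the threshold over time was WIPI2, a partner of ATG16L1 on the forming membrane, at −0.25 (SE 0.08, adjusted p = 0.0566). The other WIPI2 probe sets above the filter changed by −0.27, 0.12 and 0.30 over time. With fibrils they changed by 0.02, −0.15 and 0.00, against −0.20 for the tested one. NBR1 and OPTN, receptors that bring ubiquitinated cargo to the ATG8 proteins, changed by 0.05 and 0.30 with fibrils, with standard errors of 0.08 and 0.13.

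SCARB2 shows how far the choice of probe set matters. Its brightest probe set, the one tested, changed by 0.06 (SE 0.07) from 6 to 24 h, whereas the next changed by 0.87 (SE 0.12) and the dimmer ones by 0.24 and −0.22. Of the 46 members 20 had 1 probe set above the filter and 26 had several. All probe sets of a gene had the same sign in 11 of the 26 with oligomers, in 8 with fibrils and in 15 over time.

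**Figure D5:**
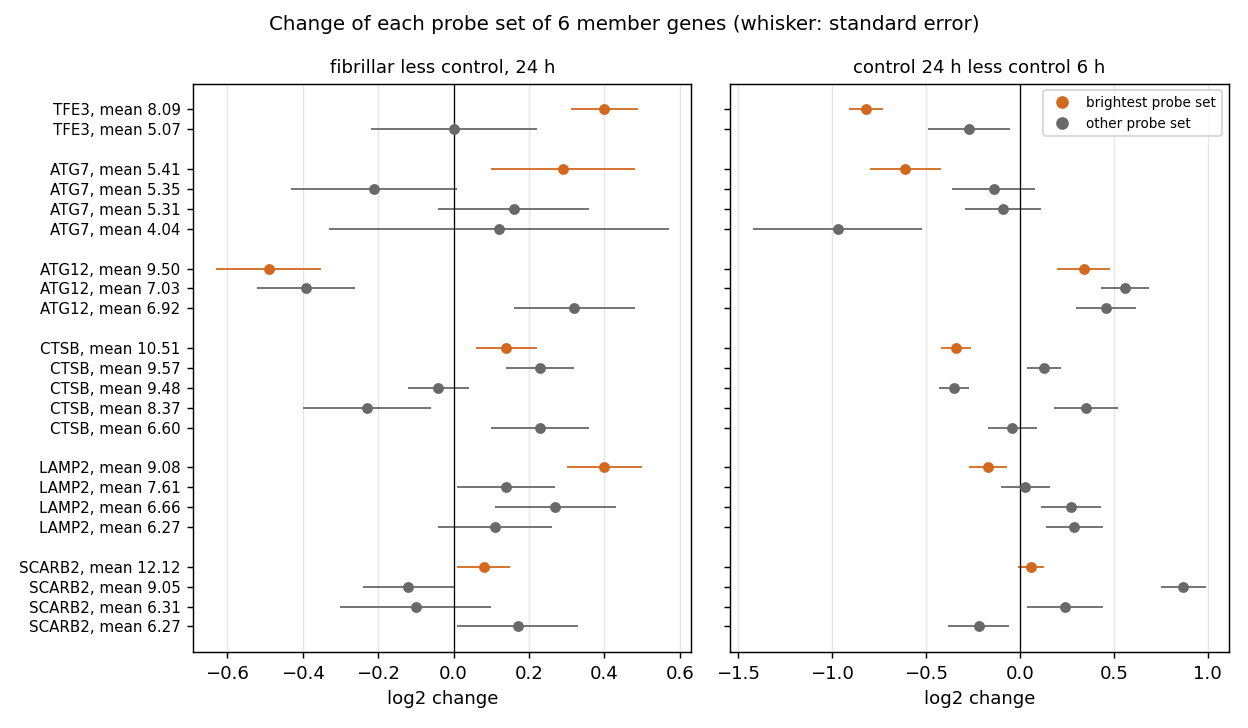
Log2 change (x axes) of every probe set above the filter for 6 member genes (y axis, with the probe set's mean log2 signal), with fibrils and between the control groups, with standard errors as whiskers and the tested probe set in orange. The 4 LAMP2 probe sets are all above 0 with fibrils, TFE3 has 1 at 0.40 and 1 at 0.00, and the CTSB and SCARB2 probe sets fall on both sides of 0 over time.

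The rest of the pathway was read from 5 further lists: 27 other tested autophagy genes, 24 hydrolases and activators, 28 membrane and sorting genes, 13 V-ATPase genes and 26 genes of mTORC1 and TFEB control. No gene of any list passed with oligomers, with fibrils or in the difference between these responses. At an unadjusted p under 0.05, in that order of lists, there were 0, 2, 2, 0 and 0 genes with oligomers, 4, 1, 8, 0 and 5 with fibrils and 1, 4, 4, 0 and 2 in the difference. Over the 118 genes of all 5 lists these were 3.39%, 15.3% and 9.32%, against 2.78%, 14.2% and 8.53% of all genes, and the 8 membrane and sorting genes with fibrils were 28.6% of their list. The median changes with fibrils were −0.02, −0.02, 0.02, 0.05 and 0.00.

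From the 6 h to the 24 h control 12 genes of these lists passed. They are 10.2% of the 118, near the 11.7% of all genes, and the lists in the order above held 1, 2, 3, 4 and 2 of them, or 3.70%, 8.33%, 10.7%, 30.8% and 7.69%. Of the 5 V-ATPase members 0 passed. Among the 13 other V-ATPase genes ATP6V0B fell by 0.64 (SE 0.08, adjusted p = 7.87e-05), ATP6V0C by 0.53 (SE 0.12, adjusted p = 0.00848) and ATP6V0E2 by 0.35 (SE 0.10), all of the membrane part, and ATP6AP2, an accessory subunit, rose by 0.34 (SE 0.08). The median of that list was nevertheless 0.04.
Of the hydrolases ASAH1, acid ceramidase, rose by 0.53 (SE 0.11) and MAN2B1, a mannosidase, fell by 0.57 (SE 0.17). The sialic acid exporter SLC17A5 rose by 0.45 (SE 0.11), and the sorting receptor IGF2R and the small GTPase RAB7A, which directs fusion with lysosomes, fell by 0.29 (SE 0.08) and 0.31 (SE 0.09). ATG10 rose by 0.38 (SE 0.11), the mTORC1 inhibitor DDIT4 rose by 0.44 (SE 0.13), and RRAGA, a GTPase that recruits mTORC1 to the lysosome, fell by 0.26 (SE 0.07).

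The 3′ less 5′ measure differed between the control groups, as given above, and it was fitted as a covariate. Because these groups did not overlap in it, its part and that of time cannot be fully told apart in this fit. A call lost with the covariate does not separate them. TFE3 alone of the members then passed over time (2.17%), where without the covariate 4 did. The share of all genes that passed was 3.97%, against 11.7% without the covariate. The members' median change over time was then −0.010, against −0.091. The change of ATG7 was larger with the covariate, at −0.76, though without a call (adjusted p = 0.152). Centring each array on its median moved the median of all genes by time to −0.147 from −0.016, and 9 members (19.6%) then passed, every one of them lower at 24 h, against 16.2% of all genes in the same fit. The direction of TFE3, CTSB and ATG7 relative to all genes was the same under both scalings.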

How the data were processed

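RNA of 12 SH-SY5Y samples was measured on Affymetrix 3′ arrays. The deposited log2 signals were made by the authors with MAS5, per the submitters' processing notes; its version is not given in the sources used here. The trimmed mean (2% to 98%) of the linear signal was 100.004 on each array, so arrays had been scaled to a common target, and they were used without further normalization. Of 54675 probe sets 62 were controls, and 41091 carried 1 symbol, 1801 several and 11721 none in GEO's platform annotation. Each gene was read from its brightest single-symbol probe set. Group means were fitted to all 12 arrays with limma 3.58.1 (R 4.3.3; data.table package, version 1.17.8) with a trended prior variance, and Benjamini-Hochberg adjusted p under 0.05 was called. The number of arrays limits the precision.

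The members and lists were chosen with earlier results of these data known. Values by array are given for called members, TFEB, TFE3, MITF and the ATG8 family. They are also given for the 2 members of each group with the smallest p in 3 comparisons. For most of these genes the values printed cover the arrays of some comparisons only, not every array. Of the further lists, up to 3 called genes in each direction are named. The fit was tested on simulated data. Alternatives were quantile normalization or median centring, no filter or the 75th percentile, averaged probe sets, constant or robust prior variance, array weights, the compared groups alone, the replicate block, the 3′ less 5′ covariate, log2 of the signal plus 16, a threshold of 0.1 and each array left out. Promoters are RefSeq's on GRCh38.p14.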

Additional observations from a re-analysis of the deposited data

How the results depend on the processing

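The count of members called with oligomers was 0 in all 25 alternative settings. With fibrils the count of 1 became 2 (LAMP2 beside TFE3) under centring on the array median, with array quality weights and at an adjusted p under 0.1. It became 0 with no filter, with the mean of the tested probe sets, with a constant prior variance, with the 3′ less 5′ covariate and with the compared groups alone, and lay between 0 and 2 when an array was left out. The difference between responses gave 0 to 1 members, 1 (ATG12) only without fibrillar replicate 1. Over time the 4 members became 9 under median centring and 9 at an adjusted p under 0.1, 7 with array quality weights and 1 with the 3′ less 5′ covariate, and 2 to 5 with an array left out (2, CTSB and TFE3, without 6 h control replicate 1 or 2). With the replicate number as a block the counts were 0, 1, 0 and 6: over time ATG7 was lost (adjusted p = 0.0579) and WIPI2, GABARAPL2 and ATP6V0D1 were gained. With each gene's group mean subtracted, same-numbered treated and control arrays correlated by −0.0227 to 0.0895. The other pairs of a treated and a control array then correlated by −0.116 to 0.0915. Such deviations within a group are tied to each other, so these values are not independent. The labels do not say whether a number marks a shared culture. Median centring shifted the median of all genes from 0.010 to 0.148 in the difference of responses and from −0.016 to −0.147 over time, and the median of the members over time from −0.091 to −0.222, while the 3′ less 5′ covariate brought it to −0.010. Apart from fewer arrays or another set of tested genes, the causes were not tested. The 95% interval of the change lay within ±0.5 (log2) for 35, 29, 22 and 28 of the 46 members in the comparisons of oligomers, fibrils, their difference and time, each gene taken singly. This is a measure of precision, not a limit of detection.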
